A study of Mus musculus with 36 samples.

Results

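Histones carry acetyl and methyl groups that a small number of enzyme families write and erase, and 60 genes of those families are described here in 3T3-L1 cells, a line of mouse fibroblasts used as a model of fat cell formation. The genes were taken by name: every row whose mouse symbol begins with Kdm, Kmt, Hdac, Setd, Sirt, Kat or Prdm followed by a digit, without Kdm1a, Hdac1 and Hdac2, and with a mean of at least 1 FPKM (fragments per kilobase of gene, scaled to depth) over 12 RNA-seq libraries. Of the 52505 genes in the table, 79 symbols matched, 76 were left after the 3 named genes were set aside, 60 reached the minimum and 16 did not. The 60 members are 15 Kdm, 8 Kmt, 8 Setd, 8 Kat, 8 Hdac, 7 Sirt and 6 Prdm genes, among 12961 genes tested. The level was the only measured value in the rule, though the members were chosen with earlier results of these data known. At the edge of that rule, Prdm9 (1.42 FPKM) and Hdac11 (1.52 FPKM) lay just inside the minimum, and Kdm6bos (0.866 FPKM) and Prdm11 (0.493 FPKM) just outside.

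The libraries fall into 4 groups of 3: wild type (WT) and Zfp217 knockout (KO) cells by their labels, each at day 0 and after 2 days of the cocktail. All were grown in DMEM with 10% fetal bovine serum, and the cocktail is listed as dexamethasone, isobutyl-methylxanthine, insulin and indometacin. No group was kept for 2 days without the cocktail, so the cocktail and the time in culture cannot be told apart. The labels leave out how Zfp217 was disrupted and if 1 clone or several were used. They also do not say that the libraries in a group are separate cultures, so each test measures a spread between libraries that may be technical. Zfp217 RNA was not lower in the libraries labelled KO: it stood at 21.96 ± 0.279 FPKM (SD, n = 3) in WT and 25.97 ± 0.883 FPKM in KO at day 0, and at 15.1 ± 0.369 and 22.6 ± 0.858 FPKM at day 2. Its RNA therefore gives no check of the genotype, and every direction below is between libraries as they are labelled.

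Lysine acetyltransferases (Kat) add acetyl groups to histone tails, a mark of active chromatin, and histone deacetylases (Hdac) remove them. Sirtuins are deacylases that consume NAD and work in the nucleus, the cytosol or the mitochondria. Kmt and Setd proteins are mostly methyltransferases with a SET domain, Kdm proteins are mostly demethylases, and Prdm proteins are zinc finger factors related to the SET methyltransferases. When 3T3-L1 cells differentiate, the chromatin around the genes of fat cells gains acetylation and H3K4 methylation, and several of these enzymes have been tied to that step.

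RefSeq promoter windows of the reference were available for 47 of the 60 members. The first 250 bases of the window are printed for Hdac4 (chr1:92180342-92180591, minus strand), Hdac11 (chr6:91156565-91156814, plus strand) and Kdm7a (chr6:39206774-39207023, minus strand). They are from RefSeq, build GRCm38.p6. These genes were taken because they show the largest rise or fall in the comparisons between genotypes or days described below. The Hdac4 bases lie inside the annotated locus of the gene (chr1:91928779-92195702). Those of Hdac11 run past the start of its locus (91156670). Only the Kdm7a bases lie wholly upstream of the annotated locus, which ends at 39206773. Capitals mark matches to 3 short motifs, searched on both strands. The GC box was searched as GGGCGG. The core of a CREB element was searched as TGACG. The CCAAT box was searched by the letters of its name.
Hdac4: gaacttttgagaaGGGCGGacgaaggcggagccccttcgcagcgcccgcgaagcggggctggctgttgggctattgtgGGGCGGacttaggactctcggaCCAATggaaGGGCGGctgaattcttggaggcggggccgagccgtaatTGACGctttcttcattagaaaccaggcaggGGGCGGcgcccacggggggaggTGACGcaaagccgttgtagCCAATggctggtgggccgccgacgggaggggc
Hdac11: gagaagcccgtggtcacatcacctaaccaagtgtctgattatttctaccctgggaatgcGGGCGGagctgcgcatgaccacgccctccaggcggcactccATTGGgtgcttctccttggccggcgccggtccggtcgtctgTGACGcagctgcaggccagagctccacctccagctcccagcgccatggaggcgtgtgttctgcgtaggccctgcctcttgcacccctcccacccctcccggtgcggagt
Kdm7a: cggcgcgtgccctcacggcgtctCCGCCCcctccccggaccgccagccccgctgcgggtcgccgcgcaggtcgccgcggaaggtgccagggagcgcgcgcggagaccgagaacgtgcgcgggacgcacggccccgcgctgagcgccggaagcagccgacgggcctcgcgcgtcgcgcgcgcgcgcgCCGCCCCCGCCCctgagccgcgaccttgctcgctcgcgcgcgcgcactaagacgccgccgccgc
The Hdac4 window holds 4 GC box, 2 CCAAT box and 2 CREB core matches, that of Hdac11 holds 1 of each, and that of Kdm7a holds 3 GC box matches and none of the others. Over all 70 windows of the 47 members, 62.9% hold a GC box, against 32.7% of all 32851 windows in the table, and their median GC content was 61.2% against 52.4%. The CCAAT box was present in 41.4% against 33.8% and the CREB core in 28.6% against 17.8%. The core is also part of the whole palindrome. The whole CREB palindrome TGACGTCA was in 0 member windows and in 1.55% of all, the E2F forms TTTGGCGC and TTTCCCGC in 0 and 4.29% against 0.417% and 0.895%, and the TATA box TATAAA in 2.86% against 12.4%. The E-box CACGTG (5.71% against 6.02%) and the C/EBP form TTGCNNAA (5.71% against 9.56%) were also searched, as was the glucocorticoid receptor element (0 against 0.387%), which makes 10 motifs in all. A match is a description of the letters in this window and not a binding site.

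Depth was even, at 18073258 to 23114994 recovered reads per library, and on the log2(FPKM + 1) scale, which damps low values, no member departed by 1.5-fold or more from the rest of its group in any single library. WT day 0 replicate 3 stood apart in mt-Rnr1, a mitochondrial ribosomal RNA (264 FPKM, where replicates 1 and 2 had 7.01 and 5.87; KO day 0 had 390.3 on average), and in the chaperone gene Hsp90aa1 (886 against 27.2 and 28.5 FPKM), but not over the members. Fibroblast and preadipocyte markers were at 1 FPKM or more for 10 of 10 genes. Their summed level was 10652 to 10962 FPKM in WT day 0, 1479 to 1511 in WT day 2, 27883 to 28575 in KO day 0 and 8485 to 8802 in KO day 2. Markers of endothelial cells (0 of 8) and epithelial cells (0 of 8) did not reach 1 FPKM, those of skeletal muscle did for 1 of 10 (Myod1, Myog, Myf5, Myf6 and Pax7 at 0), of macrophages for 3 of 10 (Marco at 0), of osteoblasts for 1 of 7 and of chondrocytes for 2 of 7 (Acan, Matn1 and Col9a1 at 0). Cell cycle and fat cell genes differed strongly between the groups: the summed level of 25 cell cycle genes was 2403 to 2429 FPKM in WT day 0, 1326 to 1333 in WT day 2, 240.0 to 248 in KO day 0 and 817 to 828 in KO day 2. The sum of 20 adipocyte genes was 116 to 118, 11662 to 11883, 265 to 278 and 961 to 972 FPKM in the same order. Their part in the results below was not tested. In bulk RNA, fewer cells of a type and less RNA per cell cannot be told apart.

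As a set, the enzyme genes were called about as often as other genes, with smaller changes. Calls, and the differences given in parentheses from here on (log2 change, with its SE after ±, and adjusted p), are by limma on log2(FPKM + 1), with Benjamini-Hochberg adjustment over all 12961 genes and a threshold of 0.05. At day 0, 27 of the 60 members were higher in KO than in WT and 22 lower, where 38.3% and 44.2% of all genes were higher and lower and 82.4% were called in all. At day 2, 25 were higher and 25 lower, against 40.8% and 40.6% of all genes (81.4% called). From day 0 to day 2 in WT, 27 rose and 23 fell, against 34.2% and 46.5% (80.7% called). In KO 17 rose and 25 fell, against 33.9% and 38.8% (72.7% called). The change over the 2 days differed between genotypes, by the interaction term of the same fit, in 47 members, 21 upward and 26 downward in KO relative to WT. Of all genes 40.8% and 33% did so (73.8% called). The members' totals of 49, 50, 50, 42 and 47 of 60 lie near these backgrounds. The median absolute log2 change was 0.37 for members against 0.51 for all genes at day 0, 0.42 against 0.52 at day 2, 0.37 against 0.50 over time in WT and 0.20 against 0.32 over time in KO. On the log2(FPKM + 1) scale, where folds of low genes are smaller than their ratios of FPKM, 5 members passed 2-fold at day 0 (3 higher, 2 lower) and 7 at day 2 (3 and 4), where 10.4% and 11.9% of all genes were higher and lower by that much at day 0 and 12.9% and 11.5% at day 2. On the same scale, over time 4 members rose and 4 fell by 2-fold in WT (9.28% and 15.1% of all genes), and 3 rose and 1 fell in KO (5.46% and 6.99%). In the interaction 5 were upward and 5 downward by that much (12.8% and 8.71%).

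**Figure D1:**
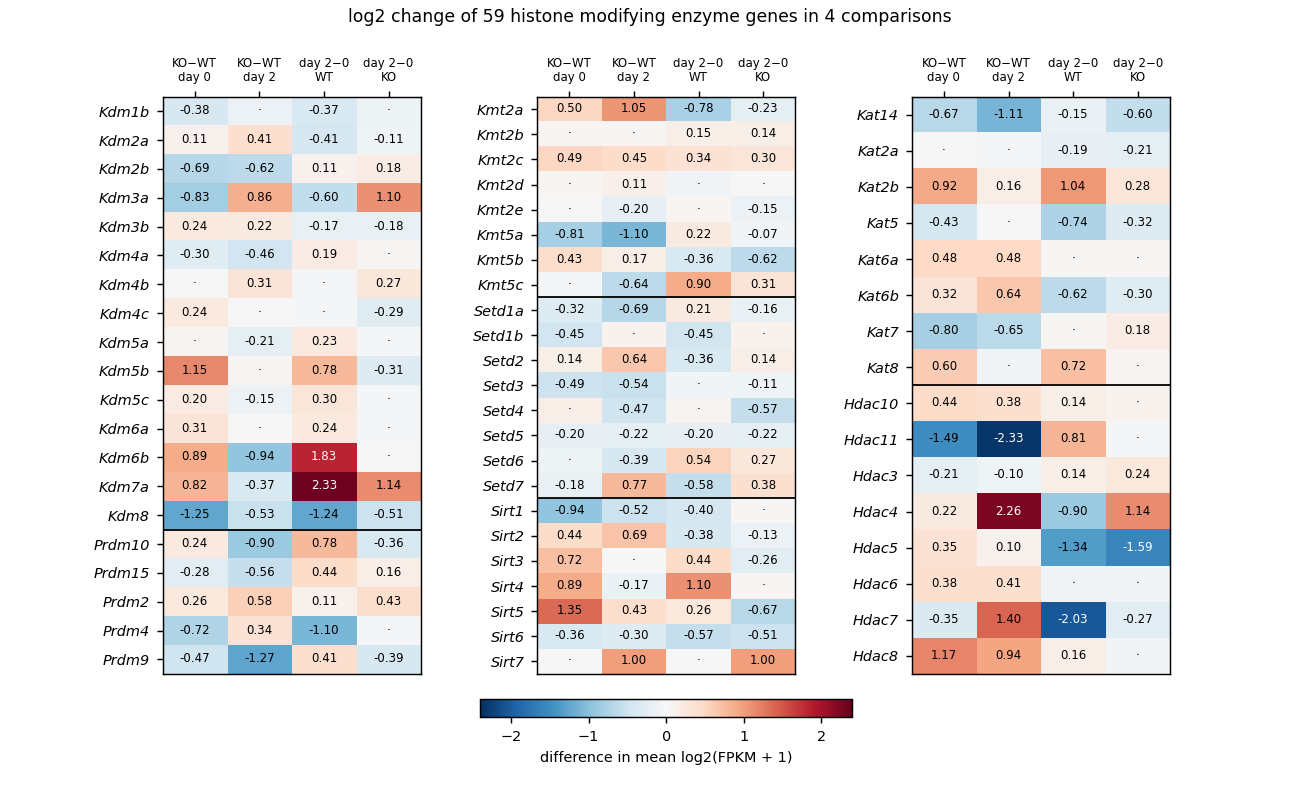
Differences in mean log2(FPKM + 1) for 59 members (rows, by family) in 4 comparisons (columns), red for higher and blue for lower; a number stands where the adjusted p from limma was under 0.05 and a dot where it was not. The strongest colours belong to Hdac4 (2.26) and Hdac11 (-2.33) at day 2 and to Kdm7a (2.33) and Hdac7 (-2.03) over time in WT.

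The summed level of the 60 genes was 1641 ± 11.4 FPKM in WT day 0, 1660.1 ± 17.003 in WT day 2, 1598 ± 15.2 in KO day 0 and 1671 ± 25.9 in KO day 2 (SD, n = 3). Kmt5a had the highest mean level of the set (151 FPKM), followed by Kdm2a, Sirt2 and Setd2 (71.6, 59.98 and 53.4 FPKM). Kat2b and Kdm5c came next in that order, close together. The median member was at 22.8 FPKM, against 16.1 FPKM for all genes tested.

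Among class IIa deacetylases, the change over the 2 days differed between genotypes. These are Hdac4, Hdac5 and Hdac7, which carry a binding site for MEF2 factors and shuttle between nucleus and cytosol. In WT all 3 fell over the 2 days, whereas in KO Hdac4 rose, Hdac5 fell and Hdac7 fell less than in WT. Hdac4 (ENSMUSG00000026313, chr1:91928779-92195702) read 39.3, 38.3 and 37.4 FPKM in the WT day 0 libraries, 19.96, 19.9 and 20.5 in WT day 2, 46.3, 43.7 and 44.8 in KO day 0 and 102, 102 and 95.5 in KO day 2. The 4 groups do not overlap, and the KO day 2 libraries stand far above all others. In the fit, Hdac4 fell in WT (log2 change -0.90 ± 0.033, SE, adjusted p = 1.1e-10) and rose in KO (1.14 ± 0.033, adjusted p = 2.6e-11). It was 4.97 times as high in KO as in WT at day 2 (adjusted p = 3.6e-14), and its interaction of 2.03 ± 0.047 was the largest of the 60 (adjusted p = 4.4e-12).

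Hdac7 (chr15:97792661-97844502) read 53.97, 51.98 and 51.2 FPKM in WT day 0, 11.5, 12.8 and 12.03 in WT day 2, 41.6, 41.1 and 39.9 in KO day 0 and 34.9, 34.9 and 31.3 in KO day 2. Its WT day 2 libraries are the low ones, 4.33 times lower than at day 0 (log2 change -2.03 ± 0.047, adjusted p = 1.4e-12), while the fall in KO was -0.27 on the log2 scale (adjusted p = 0.00023). KO was below WT at day 0 (-0.35) and above it at day 2 (1.403), both past the threshold. Its locus overlaps that of Slc48a1 by 32 bases, and the strand setting of the counting is not given in the sources used here. Hdac5 (chr11:102195747-102230172) fell in both genotypes. It read 31.7, 30.1 and 31.7 FPKM in WT day 0 and 39.97, 39.996 and 39.8 in KO day 0, and 11.1, 11.7 and 12.2 and 12.1, 12.8 and 12.9 at day 2, so the day 2 libraries lie below all day 0 libraries. The falls were -1.34 ± 0.038 for WT and -1.59 ± 0.038 for KO (adjusted p = 8.7e-12 and 4.4e-12), and the interaction was -0.25 ± 0.053 (adjusted p = 0.0014). At day 2 the genotypes overlap in Hdac5, and the call of 0.10 (adjusted p = 0.027) was lost under quantile normalization, and without WT day 2 replicate 1 (0.07, adjusted p = 0.11), WT day 2 replicate 2 (adjusted p = 0.052), KO day 2 replicate 2 (adjusted p = 0.077) or KO day 2 replicate 3 (adjusted p = 0.085). That call was also lost by voom (adjusted p = 0.069) and with only the libraries compared in the fit (adjusted p = 0.093).

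The 3 genes summed to 122 ± 2.68 FPKM in WT day 0, 43.9 ± 1.12 in WT day 2, 126 ± 1.87 in KO day 0 and 146 ± 5.64 in KO day 2. Hdac4 made up 31.5% of that sum in WT day 0, 45.8% in WT day 2, 35.7% in KO day 0 and 68.3% in KO day 2. Hdac5 fell from 31.8% of the KO sum at day 0 to 8.64% at day 2, and Hdac7 from 42.97% of the WT sum to 27.6%. FPKM is a level per gene length, so the shares compare genes on that scale. Hdac9, the fourth gene of the class, was at 0.102 FPKM in WT day 0 and at most 0.214 FPKM in any library.

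**Figure D2:**
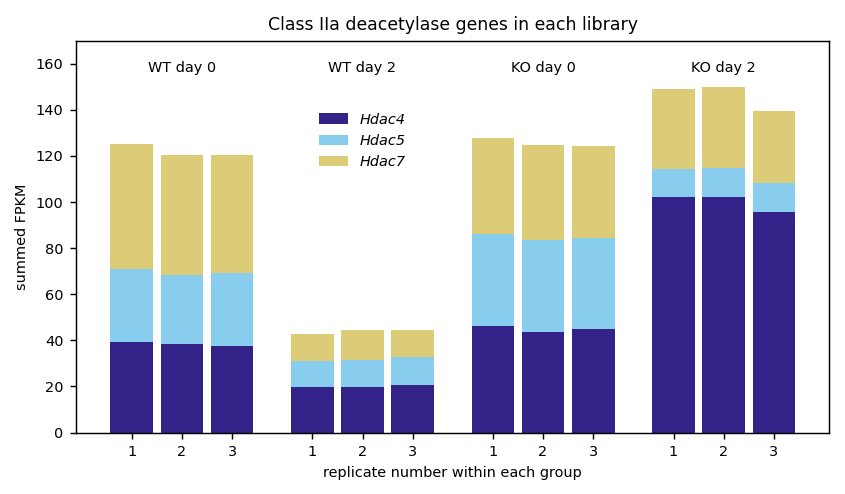
Summed FPKM of Hdac4, Hdac5 and Hdac7 in each of the 12 libraries (bars, by group and replicate number). The 3 WT day 2 bars reach 42.6 to 44.7 FPKM, and the KO day 2 bars, mostly Hdac4, reach 139.7 to 149.7 FPKM.

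Hdac11, the only class IV deacetylase and an enzyme known to remove long fatty acyl groups, was close to absent from the KO-labelled libraries. It read 1.703, 2.18 and 1.87 FPKM in WT day 0 and 4.09, 3.83 and 4.404 in WT day 2 (chr6:91156670-91174692). In KO day 0 it read 0.0563, 0.0473 and 0 FPKM and in KO day 2 0.0454, 0 and 0, with 1 KO day 0 and 2 KO day 2 libraries at 0. In recovered reads the pooled counts were 119 in WT against 2 in KO at day 0 and 259 against 1 at day 2. The ratio of WT to KO, scaled to depth, was 57.1 at day 0 (95% interval 15.5 to 477, exact conditional on the total, counting error only) and 251 at day 2 (44.7 to 9957). The adjusted p was 6.6e-09 at day 0 and 9.2e-11 at day 2, and the rise over time in WT was 0.81 ± 0.083 (adjusted p = 2e-06). As the WT libraries alone carry Hdac11 past the minimum level, it had to differ between genotypes to enter the set. Hdac11 lies on chromosome 6, where the median of 597 genes was 0.34 lower in KO than WT at day 0 on the log2 scale, relative to all genes, and 0.31 lower at day 2; the part of this in the result was not tested.

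Hdac8, a class I enzyme that deacetylates the cohesin subunit SMC3, read 6.74, 6.67 and 5.86 FPKM in WT day 0 and 15.6, 16.3 and 15.2 in KO day 0, and 6.52, 7.59 and 7.87 and 14.03, 15.3 and 15.6 at day 2. The KO libraries of both days lie above all WT libraries, 2.45 times at day 0 and 2.04 times at day 2 (log2 change 1.17 ± 0.070 and 0.94 ± 0.070, adjusted p = 1.2e-08 and 9.1e-08). Hdac3, the catalytic subunit of the NCoR and SMRT corepressors, was more abundant than Hdac8, at 47.4 ± 1.95 FPKM in WT day 0 and 40.9 ± 0.859 in KO day 0. Hdac1 and Hdac2, of the same class but left out by the rule, stood higher in WT day 0 (121 ± 4.52 and 84.4 ± 1.27 FPKM). Hdac3 rose over time in WT (0.14) and KO (0.24), and it was lower in KO at day 0 (-0.21, adjusted p = 4.9e-05). At day 2 Hdac3 was called lower in KO (-0.10, adjusted p = 0.0096), but the call was lost under TPM scaling (-0.06, adjusted p = 0.11) and the sign turned under quantile normalization (0.01, adjusted p = 0.71). Hdac6, the tubulin deacetylase of class IIb, was higher in KO at both days (0.38 and 0.41) and was not called over time in either genotype. Hdac6 was called over time in WT under quantile normalization and without WT day 2 replicate 3 or KO day 2 replicate 1. Its class partner Hdac10, a polyamine deacetylase, was higher by 0.44 and 0.38. Hdac6 and Hdac8 are on the X chromosome, whose median was 0.12 above that of all genes in KO at day 0 and 0.24 at day 2; the part of this in the results was not tested. Of the 8 Hdac genes, 5 were higher and 3 lower in KO at day 0, where 38.3% and 44.2% of all genes were. At day 2, 6 were higher and 2 lower, where 40.8% and 40.6% were. The sign of Hdac3 at day 2 turned under quantile normalization, and the call of Hdac5 was lost under several alternatives, as given above.

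The mitochondrial Sirt3, Sirt4 and Sirt5 were all higher in KO at day 0, whereas of the nuclear and cytosolic members Sirt1 and Sirt6 were lower, Sirt2 was higher and Sirt7 was not called. Sirt5, which removes succinyl and malonyl groups, read 1.29, 1.45 and 1.002 FPKM in WT day 0 and 4.68, 4.89 and 4.63 in KO day 0, 3.79 times as high (log2 change 1.35 ± 0.084, adjusted p = 1.7e-08). By day 2 it was 1.598, 1.67 and 1.76 FPKM in WT and 2.599, 2.35 and 2.88 in KO, so it rose in WT (0.26, adjusted p = 0.014) and fell in KO (-0.67, adjusted p = 1.7e-05). The rise in WT was not called without WT day 0 replicate 3 (0.175, adjusted p = 0.065). Sirt4, an ADP-ribosyltransferase and lipoamidase, read 8.08, 8.23 and 8.58 FPKM in WT day 0, 20.01, 18.9 and 17.9 in WT day 2, 15.9, 16.5 and 16.3 in KO day 0 and 17.6, 15.96 and 16.8 in KO day 2. The WT day 0 libraries are the low ones, and the other 3 groups lie between 15.9 and 20.01 FPKM. Sirt3, the main mitochondrial deacetylase, was likewise lowest in WT day 0, with 5.74 ± 0.709 FPKM in WT day 0 against 8.08 ± 0.241, 10.1 ± 1.08 and 8.1997 ± 0.267 in WT day 2, KO day 0 and KO day 2. Its locus overlaps that of Ric8a (23.3 FPKM) by 69 bases. Together the 3 mitochondrial genes summed to 15.3 ± 0.763 FPKM in WT day 0 and to 28.7 ± 1.16, 31.1 ± 1.39 and 27.6 ± 0.748 in WT day 2, KO day 0 and KO day 2.

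Sirt7, a nuclear sirtuin that acts on acetylated H3K18, was high in a single group. It read 29.6, 26.9 and 28.7 FPKM in WT day 0, 28.1, 27.9 and 28.3 in WT day 2, 26.4, 29.7 and 28.3 in KO day 0 and 58.9, 58.2 and 54.4 in KO day 2 (chr11:120618371-120625014). Only the KO day 2 libraries stand apart, and the other 9 overlap between 26.4 and 29.7 FPKM. The rise in KO was 1.00 ± 0.047 (adjusted p = 2.2e-09), that in WT was not called (-0.01 ± 0.047, adjusted p = 0.81), and the difference between the 2 was 1.01 ± 0.066 (adjusted p = 4.7e-08). Sirt1, a deacetylase reported to hold back fat cell formation through PPARγ, was low throughout. It read 6.91, 7.82 and 8.18 FPKM in WT day 0 and 3.799, 3.11 and 3.58 in KO day 0, 2.18 times lower (log2 change -0.94 ± 0.079, adjusted p = 3e-07), and it was lower in KO at day 2 as well (-0.52, adjusted p = 6.4e-05). In WT it fell over time (-0.40, adjusted p = 0.00054), a call that was lost under quantile normalization, and in KO no change was called (0.02, adjusted p = 0.83). Sirt2, the cytosolic tubulin deacetylase, went the other way, at 54.8 ± 0.535 and 74.99 ± 4.08 FPKM in WT and KO at day 0 and 41.8 ± 0.925 and 68.3 ± 0.956 at day 2 (log2 change 0.44 ± 0.035 and 0.69 ± 0.035, adjusted p = 1.6e-07 and 2.1e-09). Sirt6, a deacetylase of acetylated H3K9, fell over time in both genotypes (-0.57 and -0.51), and the difference between the falls missed the threshold (0.06 ± 0.066, adjusted p = 0.46).

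**Figure D3:**
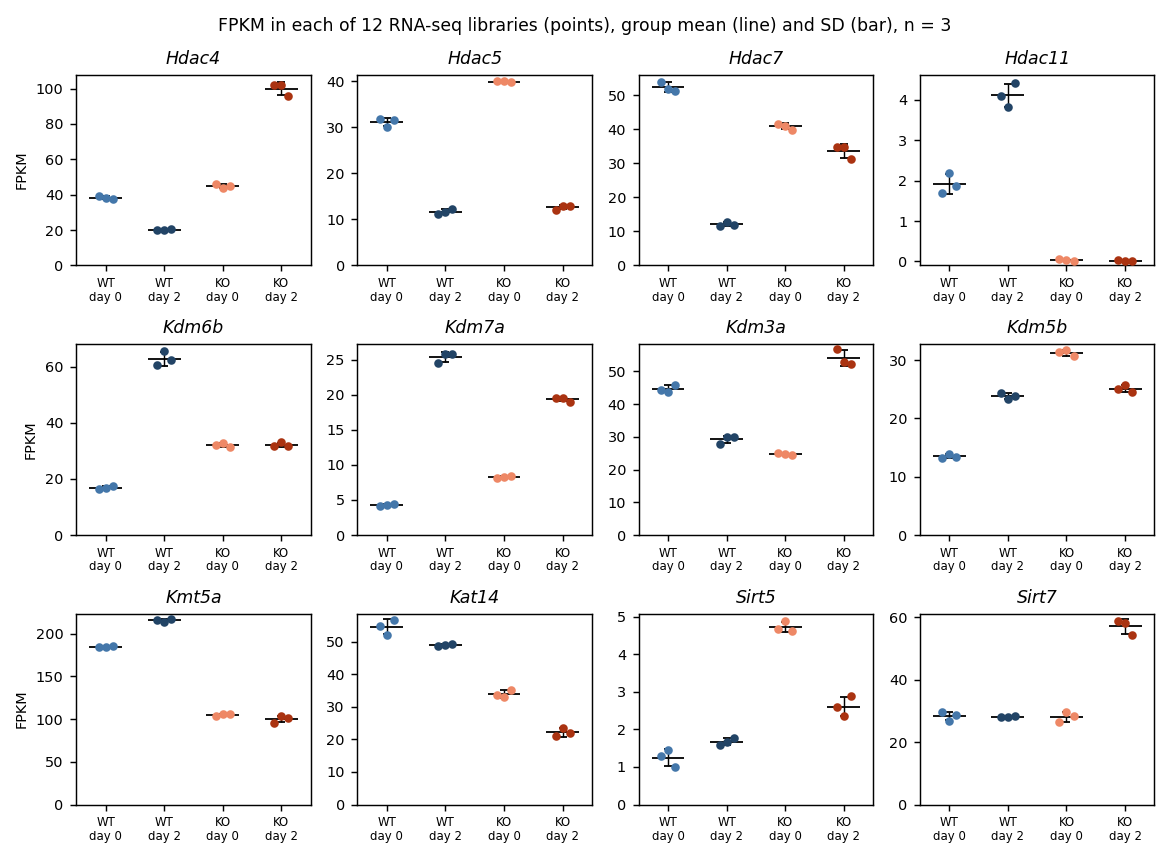
FPKM of 12 members in each library (points) by group, with the group mean (line) and SD (bar), n = 3. Hdac4 and Sirt7 are highest in KO day 2 (95.5 to 102 and 54.4 to 58.9 FPKM), Kdm6b in WT day 2 (60.8 to 65.7 FPKM), and Hdac11 lies at or near 0 in the 6 KO libraries.

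Among the acetyltransferases, the GNAT enzyme Kat2b (PCAF) rose while Kat14 fell. Kat2b read 28.3, 27.6 and 28.96 FPKM in WT day 0, 60.1, 58.7 and 58.8 in WT day 2, 56.8, 54.2 and 51.9 in KO day 0 and 65.1, 68.9 and 64.9 in KO day 2. The WT day 0 libraries lie below all others, and the rise over time was 1.04 ± 0.035 for WT and 0.28 ± 0.035 for KO (adjusted p = 5.2e-11 and 1.7e-05). Its paralog Kat2a (GCN5) was not called between genotypes at either day (-0.01 and -0.03, adjusted p = 0.84 and 0.54), with 26.5 ± 0.496 FPKM in WT day 0. Kat14, a subunit of the ATAC acetyltransferase complex, read 54.8, 52.2 and 56.7 FPKM in WT day 0, 48.5, 48.9 and 49.2 in WT day 2, 33.7, 33.004 and 35.3 in KO day 0 and 20.96, 23.5 and 21.9 in KO day 2. No groups overlap, and KO was lower than WT (log2 change -0.67 ± 0.042 at day 0 and -1.11 ± 0.042 at day 2, adjusted p = 2.1e-08 and 1.6e-10). Its fall over time in WT (-0.15) was lost under median-of-ratios scaling (-0.05, adjusted p = 0.34). The Kat14 locus overlaps that of Pet117 (mean 0 FPKM) by 4306 bases, and the effect of this on the level of Kat14 was not tested. Kat14 lies on chromosome 2, whose median was 0.16 lower in KO at day 0 and 0.22 lower at day 2, relative to all genes; the part of this in the result was not tested. Within the GNAT sum, which had group means of 109 to 131 FPKM, the share of Kat2b was 25.9% in WT day 0 and 59.6% in KO day 2, and that of Kat14 49.9% and 19.9%.

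Of the 5 MYST acetyltransferases, 3 were higher and 2 lower in KO at day 0 (38.3% and 44.2% of all genes). Kat7 (HBO1), which acetylates H3K14 and works at replication origins, read 51.9, 53.1 and 52.6 FPKM in WT day 0 and 29.5, 29.7 and 29.8 in KO day 0, and 54.9, 51.5 and 54.7 and 33.7, 34.9 and 32.8 at day 2. It was lower in KO at both days (-0.80 ± 0.030 and -0.65 ± 0.030, adjusted p = 1.7e-10 and 1.1e-09) and did not pass the test over time in WT (0.03), though it did under median-of-ratios scaling (0.14, adjusted p = 0.0012). Kat6a and Kat6b, the MOZ and MORF enzymes, were higher in KO at both days, Kat6a by 0.48 and 0.48 and Kat6b by 0.32 and 0.64. Kat6a lies on chromosome 8, whose 674 genes had a median 0.42 higher in KO at day 0, relative to all genes, and 0.40 higher at day 2; the part of this in the result was not tested. Kat6b also fell over time in WT (-0.62 ± 0.044, adjusted p = 6.2e-08) and KO (-0.30, adjusted p = 7.6e-05). Kat5 (TIP60), a coactivator tied to PPARγ, fell in WT from 17.5 ± 0.923 to 10.1 ± 0.556 FPKM (-0.74 ± 0.058, adjusted p = 1.7e-07) and in KO from 12.8 ± 0.543 to 10.1 ± 0.695 (-0.32, adjusted p = 0.00039), and at day 2 no difference between genotypes was called (-0.01, adjusted p = 0.93). Kat8 (MOF), the H4K16 enzyme, was 15.3 FPKM in WT day 0 and between 22.2 and 25.9 FPKM in the libraries of the other groups.

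Kdm7a and Kdm6b, demethylases of H3K9 and H3K27, had the largest rises of the 60 over time in WT. Kdm6b (JMJD3), which removes the repressive H3K27 methyl mark, read 16.3, 16.8 and 17.7 FPKM in WT day 0, 60.8, 65.7 and 62.4 in WT day 2, 32.1, 32.7 and 31.5 in KO day 0 and 31.9, 33.04 and 31.8 in KO day 2 (chr11:69398508-69420367). The 6 KO libraries overlap at both days, while WT lies below them at day 0 and above them at day 2. Thus Kdm6b rose 3.72 times in WT (1.83 ± 0.036, adjusted p = 3.4e-13) with no change called in KO (0.01 ± 0.036, adjusted p = 0.88), an interaction of -1.83 ± 0.051 (adjusted p = 2.3e-11). KO was 1.896 times WT at day 0 and 1.95 times lower at day 2. Kdm6a (UTX), its X-linked partner, had means of 14.1, 16.8, 17.6 and 17.02 FPKM in the same 4 groups. Kdm6b made up 54.6% of the summed level of the pair in WT day 0 and 78.9% in WT day 2, against 64.6% and 65.4% in KO.

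Kdm7a, a JmjC enzyme that acts on H3K9 and H3K27, read 4.08, 4.34 and 4.38 FPKM in WT day 0, 24.6, 25.8 and 25.8 in WT day 2, 8.13, 8.304 and 8.38 in KO day 0 and 19.6, 19.5 and 19.04 in KO day 2 (chr6:39136620-39206773). No 2 groups overlap. The rise was 5.96 times in WT (2.33 ± 0.037, adjusted p = 4.8e-14) and 2.34 times in KO (1.14 ± 0.037, adjusted p = 6.8e-11), and the difference between the rises was called (-1.19 ± 0.052, adjusted p = 1.1e-09). Kdm3a (JHDM2A), an H3K9 demethylase whose loss is known to cause obesity in mice, moved in opposite directions. It read 44.3, 43.8 and 45.8 FPKM in WT day 0, 27.9, 29.9 and 29.9 in WT day 2, 24.9, 24.6 and 24.3 in KO day 0 and 56.7, 52.95 and 52.4 in KO day 2 (chr6:71588970-71632990). WT fell by 1.53 times and KO rose 2.19 times (-0.60 ± 0.037 and 1.10 ± 0.037, adjusted p = 1.5e-08 and 9.2e-11), which reversed the order of the genotypes between the days. Both genes lie on chromosome 6, where the lower median in KO given for Hdac11 applies. Kdm4b, an H3K9 demethylase tied to C/EBPβ targets in 3T3-L1 cells, was at 25.6 ± 1.52, 24.96 ± 0.916, 25.7 ± 0.797 and 31.2 ± 1.96 FPKM in WT day 0, WT day 2, KO day 0 and KO day 2. It rose in KO (0.27, adjusted p = 0.00061), was not called over time in WT (-0.03, adjusted p = 0.58), and the difference between them was 0.30 (adjusted p = 0.003). Kdm4a was lower in KO at both days (-0.30 and -0.46) and Kdm3b higher (0.24 and 0.22). Kdm4c was higher in KO at day 0 (0.24) and fell over time in KO (-0.29).

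**Figure D4:**
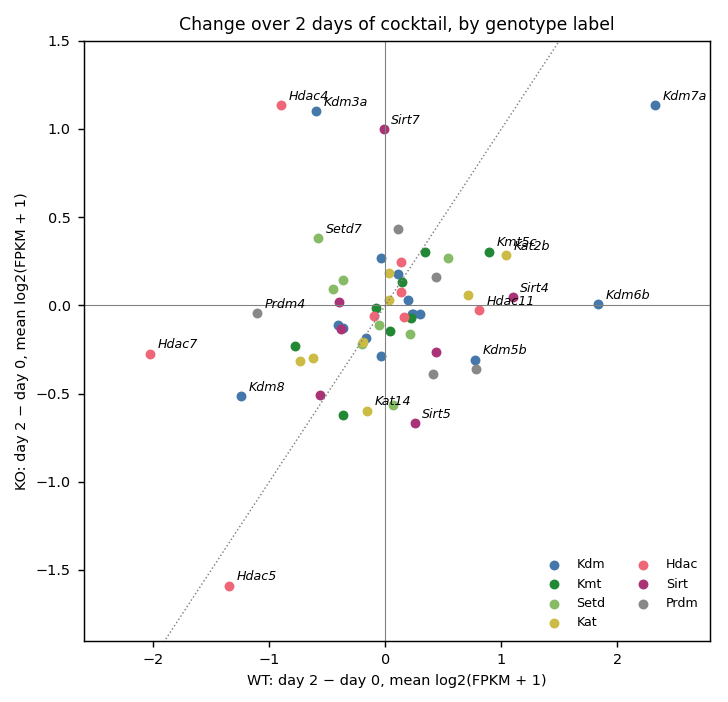
Change from day 0 to day 2 of 59 members in mean log2(FPKM + 1), in WT (horizontal axis) and KO (vertical axis), one point a gene coloured by family; the dotted line marks equal change. Kdm6b lies far right at no change in KO (1.83 and 0.01), Hdac4 and Kdm3a fall in WT and rise in KO, and Hdac5 falls in both.

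Kdm5b (JARID1B), an H3K4 demethylase, read 13.2, 13.9 and 13.3 FPKM in WT day 0, 24.3, 23.3 and 23.9 in WT day 2, 31.5, 31.7 and 30.6 in KO day 0 and 25.04, 25.6 and 24.4 in KO day 2. It rose in WT (0.78 ± 0.031, adjusted p = 2.2e-10) and fell in KO (-0.31 ± 0.031, adjusted p = 2.3e-06), from a level 2.32 times as high in KO as in WT at day 0 (1.15 ± 0.031, adjusted p = 7.9e-12). At day 2 the groups do not overlap, but the difference of 0.07 missed the threshold (adjusted p = 0.06). It passed without KO day 2 replicate 3 (0.08, adjusted p = 0.039), under TPM (0.11, adjusted p = 0.0099) and median-of-ratios scaling (0.09, adjusted p = 0.016), and by voom on the recovered reads (0.07, adjusted p = 0.039). The paralogs Kdm5a and Kdm5c stayed between 34.9 and 57.1 FPKM in every library (the locus of Kdm5a overlaps that of Ccdc77, at 8.77 FPKM, by 271 bases), and the Y-linked Kdm5d was listed at 0 in all 12. Kdm2b, an H3K36 demethylase of a Polycomb complex, was lower in KO at day 0 and day 2 (-0.69 ± 0.047 and -0.62 ± 0.047, adjusted p = 4.2e-08 and 1e-07), and its paralog Kdm2a higher (0.11 and 0.41). Kdm1b, a flavin-dependent H3K4 demethylase, was lower in KO at day 0 (-0.38, adjusted p = 0.00014) and fell in WT (-0.37, not called under quantile normalization), and its locus overlaps that of Dek (77.3 FPKM) by 513 bases. The share of Kdm2b in the sum with Kdm2a was 20.9% and 27.6% in WT against 12.8% and 15.4% in KO. Kdm8, a JmjC protein hydroxylase, was low and fell in both genotypes, from 6.07, 6.97 and 5.57 to 1.82, 2.26 and 2.05 FPKM in WT and from 1.702, 2.12 and 2.24 to 1.01, 0.948 and 1.39 in KO (-1.24 ± 0.11 and -0.51 ± 0.11, adjusted p = 3.9e-07 and 0.001). At day 0 it was 3.07 times lower in KO (adjusted p = 3.6e-07).

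The 8 genes grouped as H3K4 methyltransferases include Kmt2e, placed there by its name. Of the 8, 2 were higher and 3 lower in KO at day 0 (38.3% and 44.2% of all genes). At day 2, 4 were higher and 2 lower (40.8% and 40.6%), with Kmt2e among the lower. Kmt2c and Kmt2d (MLL3 and MLL4), the enzymes that mark enhancers and are needed for fat cell formation, come first. Kmt2c read 12.97, 14.2 and 13.2 FPKM in WT day 0, 16.9, 17.1 and 17.8 in WT day 2, 19.7, 18.7 and 19.3 in KO day 0 and 23.6, 25.1 and 23.2 in KO day 2. It rose over time in both genotypes (0.34 ± 0.042 and 0.30 ± 0.042, adjusted p = 1.1e-05 and 4.8e-05) and was higher in KO at both days (0.49 and 0.45, adjusted p = 4e-07 and 9e-07). Kmt2d stayed between 21.2 and 25.1 FPKM in all 12 libraries. Its call was at day 2 (0.11, adjusted p = 0.014), and that was lost without WT day 2 replicate 1 (0.10, adjusted p = 0.053) or KO day 2 replicate 2 (0.09, adjusted p = 0.062). At day 0 Kmt2d was called higher in KO under TPM (0.15, adjusted p = 0.0054), median-of-ratios scaling (0.13, adjusted p = 0.0061) and quantile normalization (0.16, adjusted p = 0.0015). Over time in WT it was called lower with the replicate number as a block (-0.08, adjusted p = 0.037) and by voom (-0.08, adjusted p = 0.025). It was also called there with only the libraries compared in the fit (adjusted p = 0.048) and without KO day 0 replicate 2 (adjusted p = 0.042). Kmt2d lies on chromosome 15, as do Hdac7 and Hdac10. The median of chromosome 15 was 0.17 higher in KO at day 0 and 0.20 higher at day 2, relative to all genes. The part of this in the results of these genes was not tested. Kmt2a (MLL1) fell over time and more so in WT, from 20.96, 23.1 and 22.7 to 11.7, 13.1 and 12.9 FPKM in WT and from 32.4, 32.2 and 31.1 to 27.2, 27.998 and 26.1 in KO. At day 2 it was 2.16 times as high in KO (1.05 ± 0.049, adjusted p = 1.1e-09). Kmt2a lies on chromosome 9, as do Setd2 and Prdm10. The median of chromosome 9 was 0.14 higher in KO at day 0 and 0.18 higher at day 2, relative to all genes. Its part in the results of these genes was not tested. Kmt2b, the paralog of Kmt2a, did not pass the test between genotypes at either day (0.05 and 0.04, adjusted p = 0.14 and 0.27). It was called at day 0 under TPM, median-of-ratios and quantile scaling, and at day 2 under TPM and quantile scaling. Kmt2e, grouped with these enzymes by name, was lower in KO at day 2 (-0.20, adjusted p = 0.0016). Its locus overlaps that of the long non-coding RNA 5031425E22Rik (28.7 FPKM) by 1318 bases and that of Srpk2 (26.9 FPKM) by 880 bases. Setd1b was lower in KO at day 0 (-0.45) and fell in WT (-0.45), with no change called in KO (0.09, adjusted p = 0.073). The change in KO was called under median-of-ratios scaling, under quantile normalization, by voom and without KO day 0 replicate 2. Setd1a, the catalytic subunit of a COMPASS complex, rose in WT and fell in KO (0.21 and -0.16; the fall was not called under quantile normalization, at -0.10, adjusted p = 0.071) and was lower in KO at day 2 (-0.69 ± 0.047, adjusted p = 3.9e-08).

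Setd7, which adds 1 methyl group to H3K4 and to several non-histone proteins, read 42.3, 42.5 and 42.3 FPKM in WT day 0, 27.8, 28.4 and 27.9 in WT day 2, 37.8, 36.9 and 36.8 in KO day 0 and 49.1, 49.8 and 47.02 in KO day 2. It fell in WT (-0.58 ± 0.025, adjusted p = 5.8e-10) and rose in KO (0.38 ± 0.025, adjusted p = 6e-08). The interaction was 0.96 ± 0.036 (adjusted p = 2.9e-10), and the difference at day 0 (-0.18) was not called under quantile normalization (-0.05, adjusted p = 0.073). Setd2, the main H3K36 methyltransferase, had the same signs (-0.36 in WT and 0.14 in KO, the latter not called under TPM scaling or without KO day 2 replicate 2) and was higher in KO at day 2 (0.64 ± 0.046, adjusted p = 6.3e-08). Setd3, a histidine methyltransferase of actin, was lower in KO at both days (-0.49 and -0.54), as was Setd5 (-0.20 and -0.22), whose call at day 0 was lost under TPM scaling. Setd5 lies on chromosome 6, whose median was 0.34 lower in KO at day 0 and 0.31 lower at day 2, relative to all genes. The part of this in the Setd5 result was not tested. Setd3 lies on chromosome 12, whose median was 0.21 lower in KO at day 0 and 0.31 lower at day 2, relative to all genes, and its locus overlaps that of Ccnk (19.95 FPKM) by 38 bases; the part of either in the result was not tested. Setd4 was at 4.601 ± 0.389 FPKM in KO day 0 and 2.79 ± 0.416 in KO day 2 (-0.57 ± 0.090, adjusted p = 0.00013), with no change called in WT (0.07, adjusted p = 0.49). Under quantile normalization a rise of Setd4 in WT was called (0.32, adjusted p = 0.0081). Setd6 shares 2577 bases of its locus with Cnot1 (76.7 FPKM), so its level is uncertain.

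Kmt5a (SET8), the H4K20 monomethyltransferase of the cell cycle and the most abundant member, read 184, 184 and 186 FPKM in WT day 0, 216, 214 and 217 in WT day 2, 104, 106 and 105 in KO day 0 and 95.8, 103 and 101 in KO day 2 (chr5:124439930-124462311). Every WT library lies above every KO library, by 1.76 times at day 0 and 2.15 times at day 2 (-0.81 ± 0.026 and -1.10 ± 0.026, adjusted p = 3.5e-11 and 1.9e-12). It rose over time in WT (0.22 ± 0.026, adjusted p = 5.5e-06). The small fall in KO (-0.07, adjusted p = 0.026) was lost under median-of-ratios scaling (-0.02, adjusted p = 0.51) and without KO day 0 replicate 2 (adjusted p = 0.078), KO day 0 replicate 3 (0.064) or KO day 2 replicate 1 (0.10). Kmt5a lies on chromosome 5, as do Kdm2b, Setd1b, Kmt2c, Kmt2e and Sirt4. Of these, Kmt2c was higher in KO at both days (0.49 and 0.45) and Sirt4 at day 0 (0.89). Sirt4 was lower in KO at day 2 (-0.17), and Kmt2e was called lower at day 2 alone (-0.20). The median of that chromosome was 0.18 lower in KO at day 0 and 0.14 lower at day 2, relative to all genes. The part of this in the results of these genes was not tested. Of the 25 cell cycle genes, 25 were lower in KO than in WT at day 0 and 24 at day 2 (44.2% and 40.6% of all genes). Over time 24 fell in WT and 23 rose in KO (46.5% and 33.9% of all genes). The part of the cell cycle genes in the Kmt5a result was not tested. Kmt5b, an enzyme that adds the further methyl groups, was higher in KO at day 0 (0.43 ± 0.053, adjusted p = 1.1e-05) and fell over time in WT and KO (-0.36 and -0.62). Its higher level in KO at day 2 (0.17) was lost without WT day 2 replicate 1 (0.13, adjusted p = 0.052). Kmt5c, of the same activity, rose over time, from 30.5, 29.8 and 30.1 to 58.2, 56.9 and 55.8 FPKM in WT and from 29.7, 30.8 and 27.2 to 37.3, 34.3 and 37.3 in KO (0.90 ± 0.045 and 0.31 ± 0.045, adjusted p = 2e-09 and 6.6e-05). The 3 genes summed to 233 ± 1.82 and 287 ± 1.55 FPKM in WT at day 0 and day 2, and to 159.8 ± 2.72 and 153 ± 3.18 in KO.

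Prdm4, a zinc finger factor, read 24.3, 24.5 and 24.8 FPKM in WT day 0 and 10.7, 11.1 and 10.8 in WT day 2, a fall of 2.25 times (-1.10 ± 0.036, adjusted p = 3.6e-11). In KO it was 14.3, 15.3 and 14.02 FPKM at day 0 and 14.4, 13.9 and 13.9 at day 2, and no change was called (-0.05, adjusted p = 0.28). Prdm10 read 5.31, 4.98 and 4.91 FPKM in WT day 0, 9.21, 9.51 and 9.47 in WT day 2, 6.21, 6.22 and 6.11 in KO day 0 and 4.57, 4.59 and 4.62 in KO day 2, with a rise in WT (0.78 ± 0.041, adjusted p = 3.8e-09) and a fall in KO (-0.36 ± 0.041, adjusted p = 8.2e-06). Prdm9, the methyltransferase that places meiotic recombination sites, passed the minimum through its WT libraries (0.936 and 0.483 FPKM in KO day 0 and day 2), so it had to differ between genotypes, with 2.65, 2.47 and 2.57 FPKM in WT day 2 and 0.683, 0.322 and 0.444 in KO day 2 (-1.27 ± 0.10, adjusted p = 1.4e-07). Prdm2 (RIZ) rose in KO from 32.96 ± 0.144 to 44.8 ± 1.74 FPKM (0.43 ± 0.031, adjusted p = 1.1e-07). Prdm15 was lower in KO at both days (-0.28 and -0.56). Prdm16, the factor of brown fat cells, was among the 16 genes below the minimum, at a mean of 0.00074 FPKM, and Prdm6, Prdm13, Kdm5d and Kat6b-ps2 were listed at 0 in all 12 libraries. The other genes below the minimum were Hdac9, Kat2b-ps, Kat6b-ps1, Kdm4d, Kdm4dl, Kdm6bos, Prdm1, Prdm8, Prdm11, Prdm12 and Prdm14. Of these, Prdm11 reached 1.32 ± 0.0713 FPKM in WT day 0.

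Across the 2 days, 24 members were called in both genotypes with the same sign and 11 with opposite signs (18.3%, against 18.2% of all genes tested). The 11 were Hdac4, Kdm3a, Kdm5b, Kmt5a, Prdm9, Prdm10, Setd1a, Setd2, Setd7, Sirt3 and Sirt5. Of their calls in KO, that of Kmt5a was lost as given above, and those of Setd1a and Sirt3 under quantile normalization (Sirt3 at -0.19, adjusted p = 0.061). The call of Sirt3 was also lost without KO day 0 replicate 3 (-0.20, adjusted p = 0.054), and that of Setd2 was lost under TPM and without KO day 2 replicate 2. Of their calls in WT, that of Sirt5 was lost without WT day 0 replicate 3. Another 15 were called in WT alone, 7 in KO alone and 3 (Hdac6, Kat6a and Kmt2d) in neither. For these counts and for the 24, the matching shares of all genes were not taken. Of all genes, 80.7% were called over time in WT and 72.7% in KO. Between genotypes, 32 members were called at both days with the same sign (53.3%, against 53.4% of all genes), 17 of them higher and 15 lower in KO, and 9 were called with opposite signs (15%, against 16.5%). Those 9 were Hdac7, Kdm3a, Kdm5c, Kdm6b, Kdm7a, Prdm4, Prdm10, Setd7 and Sirt4, with the calls of Setd7 at day 0 and of Kdm5c at day 2 lost under quantile normalization. The groups of 3 libraries did not overlap in 52 of the 60 members between genotypes at day 0 (84% of all genes) and 51 at day 2 (82.2%), and in 51 between days in WT (82.2%) and 46 in KO (74.8%).

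The enzymes of the same marks outside the named families, and the subunits that work with the members, were read from lists chosen with these data known. Their counts stand beside the shares of all genes given above. At day 0, 38.3% of all genes were higher and 44.2% lower in KO. At day 2, 40.8% and 40.6% were. Of 24 other methyltransferase genes tested, 7 were higher and 13 lower in KO at day 0 and the same numbers at day 2. At each day 20 of 24 were called, where 82.4% and 81.4% of all genes were. Ezh2, the H3K27 methyltransferase opposed by Kdm6b, was 55.6 ± 2.08 FPKM in WT day 0 and 9.59 ± 0.246 in KO day 0 (-2.42 ± 0.047, adjusted p = 5.5e-13), fell in WT to 36.7 ± 1.03 FPKM and rose in KO to 27.3 ± 1.93 (-0.59 and 1.42). Setdb1, an H3K9 methyltransferase, fell in WT (-0.54) and rose in KO, from 13.6 ± 0.531 to 36.4 ± 0.493 FPKM (1.36 ± 0.035, adjusted p = 1e-11), and the difference was 1.90 ± 0.050 (adjusted p = 1.4e-11). Dot1l, the H3K79 methyltransferase, rose 4.15 times in WT and 2.003 times in KO, and the arginine methyltransferase Prmt1 was lower in KO at both days (-1.32 and -0.95). Among 11 other acetyltransferases, 2 were higher and 7 lower in KO at day 0 and 5 and 6 at day 2. Hat1, which acetylates new histone H4, was 7.82 times lower in KO at day 0 (-2.89 ± 0.039, adjusted p = 3.2e-14), and the coactivator Ncoa1 rose 5.37 times in WT with no change called in KO (0.03, adjusted p = 0.49).

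COMPASS subunits, the partners of Kmt2 and Setd1 enzymes, were lower in KO in 8 of 12 genes and higher in 1 at day 0 (44.2% and 38.3% of all genes). At day 2 they were lower in 7 and higher in 5 (40.6% and 40.8%). Dpy30, needed for full H3K4 methylation, was at 50.3 ± 2.07 and 50.8 ± 2.46 FPKM in WT and 21.4 ± 1.43 and 19.3 ± 0.835 in KO (-1.35 ± 0.053 at day 2, adjusted p = 2.1e-10). Of 26 Polycomb subunits 7 were higher and 16 lower in KO at day 0, and 10 were higher and 12 lower at day 2. Over time 20 fell and 4 rose in WT, where 46.5% and 34.2% of all genes did. In KO 13 fell and 10 rose, where 38.8% and 33.9% did. The chromobox gene Cbx6 was at 132 ± 3.72 FPKM in WT day 0, 446 ± 10.7 in KO day 0, 34.4 ± 1.06 in WT day 2 and 199 ± 2.44 in KO day 2 (1.76 and 2.498 between genotypes). Subunits of the HDAC corepressors fell in WT in 19 of 25 genes with 4 rising (46.5% and 34.2% of all genes). They were lower in KO in 14 with 5 higher at day 0 and lower in 11 with 8 higher at day 2. Chd3 fell in both genotypes (-0.88 and -0.63), Sin3b was higher in KO at day 2 (0.99), and Tbl1xr1 rose in WT (1.16). Among 39 subunits of acetyltransferase complexes, 24 fell and 7 rose in WT, and 15 fell and 12 rose in KO, against the same shares of all genes over time. Between genotypes 20 were lower and 12 higher in KO at day 0, and 15 and 16 at day 2. Jade1, a partner of Kat7, rose in both (2.13 and 3.402 times), and Jade2, of the same family, fell in WT and rose in KO (-0.28 and 1.06; interaction 1.33 ± 0.062, adjusted p = 1.9e-09).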

How the data were processed

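RNA-seq of 12 libraries (3 in each of 4 groups) was analysed, and the 24 MeRIP samples of the series were not used here. Per the submitters' processing notes the build was mm10. Aligners listed there are TopHat2 2.0.12, BWA 0.7.12 and Bowtie2 2.2.3, and the other tools are HTSeq 0.6.1, MACS2 2.1.0, FastQC and CASAVA, with no role given. For annotation and strand, the setting is not given in the sources used here. Values came as FPKM, which the authors deposited for 52505 genes, of which 51633 identifiers matched a symbol. Values were whole multiples of a step per gene in all 30916 genes above 0 (100% of them, tolerance 0.001 read), from which reads were recovered, 18073258 to 23114994 per library. The implied gene length was whole within 0.05 bases in 99.99% of the 16215 genes above 0 in all libraries.

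The 12961 genes at or above a 1 FPKM mean were fitted as log2(FPKM + 1), so fold changes of low genes are understated, with limma 3.58.1 (R 4.3.3): group means over 12 libraries, 8 residual degrees of freedom, eBayes with a trend, 2-sided, Benjamini-Hochberg over all genes, threshold 0.05. Ratios in the text are of mean FPKM. The script was tested on simulated data. Samples were grouped by their labels. Replicate pairs differed by more than counting noise (median chi-square ratio 1.39 to 2.18), and none was identical. No block was used, as no label ties a number to a shared culture. Alternatives were the pseudocount (0.1), the filter (none, or 5 FPKM), scaling by quantiles, by TPM or by median of ratios, a fit with no trend, a replicate block, only the libraries compared, each library left out, a 2-fold minimum, and voom on the recovered reads, a count test of limma. On those reads voom called 49, 51, 50, 43 and 46 members in the 5 comparisons.

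Members named are, in each comparison, up to 8 largest rises and 8 largest falls among members past the threshold whose groups do not overlap, the 6 smallest adjusted p of the interaction, and members tied to fat cell formation by background. In each other list, up to 3 genes with the smallest adjusted p could be named. Other members named are examples of their role. The values of 1 member are not reported here or plotted, though it is in the counts. The members and lists were chosen with earlier results of these data known. Python 3.11.15 and matplotlib 3.10.9 made the tables and figures.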

Additional observations from a re-analysis of the deposited data

Results flagged for a closer look

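The change from day 0 to day 2 differed between the genotype labels in 47 of the 60 members, by the interaction term of the fit across all genes (limma, adjusted p under 0.05), where 73.8% of all 12961 genes did. The values are the day 2 minus day 0 change in KO minus that in WT, on the log2(FPKM + 1) scale. They are given for 46 members. No explanation was tested.

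The demethylase genes that changed upward in KO relative to WT were Kdm3a (1.70), Kdm8 (0.73), Kdm4b (0.30), Kdm2a (0.30) and Kdm1b (0.24). Those that changed downward were Kdm6b (-1.83), Kdm7a (-1.19), Kdm5b (-1.09), Kdm5c (-0.35), Kdm6a (-0.29), Kdm5a (-0.28), Kdm4c (-0.25) and Kdm4a (-0.16). The call of Kdm4c was lost with no filter and without each of WT day 0 replicate 1, WT day 2 replicates 2 and 3, KO day 0 replicates 2 and 3 and KO day 2 replicates 2 and 3. That of Kdm1b was lost with no filter, under TPM, median-of-ratios and quantile scaling, and without each of WT day 0 replicates 2 and 3, WT day 2 replicate 3, KO day 0 replicate 1 and KO day 2 replicates 1 and 2. Of the Kmt genes, Kmt2a (0.55) was upward. Downward Kmt genes were Kmt5c (-0.59), Kmt5a (-0.29), Kmt5b (-0.26) and Kmt2e (-0.19). In the Setd family Setd7 (0.96), Setd1b (0.54) and Setd2 (0.50) were upward. Downward in that family were Setd4 (-0.64), Setd1a (-0.37) and Setd6 (-0.27). Acetyltransferase genes with an upward difference were Kat5 (0.42), Kat6b (0.32) and Kat7 (0.15), with the call of Kat7 lost under TPM (0.09, adjusted p = 0.0999) and median-of-ratios scaling (0.09, adjusted p = 0.069). The others, Kat2b (-0.76), Kat8 (-0.66) and Kat14 (-0.44), had a downward one. Deacetylase genes gave Hdac4 (2.03), Hdac7 (1.75) and Hdac3 (0.11) upward. The call of Hdac3 was lost under TPM (0.05, adjusted p = 0.32), median-of-ratios (0.05, adjusted p = 0.33) and quantile scaling (0.09, adjusted p = 0.065), with no filter (adjusted p = 0.066) and with no variance trend (adjusted p = 0.062). It was also lost without each of WT day 0 replicates 1 and 3, WT day 2 replicates 2 and 3, KO day 0 replicates 1 and 2 and KO day 2 replicates 1 and 3. Downward deacetylases were Hdac11 (-0.84, not called by voom) and Hdac5 (-0.25). Upward sirtuins were Sirt7 (1.01), Sirt1 (0.42) and Sirt2 (0.25). Downward sirtuins were Sirt4 (-1.06), Sirt5 (-0.93) and Sirt3 (-0.70). Finally, the Prdm genes Prdm4 (1.06) and Prdm2 (0.32) were upward. Their downward counterparts were Prdm10 (-1.14), Prdm9 (-0.80) and Prdm15 (-0.28).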

How the results depend on the processing

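Counts of called members stayed within 1.5 times of the reported ones under all alternatives but one. With a minimum of 2-fold on the log2(FPKM + 1) scale, 3 members were higher and 2 lower in KO at day 0, and 3 and 4 at day 2. Over time 4 rose and 4 fell in WT and 3 rose and 1 fell in KO, and in the interaction 5 were upward and 5 downward. A replicate block, tried although same-numbered libraries did not pair (correlations of their deviations -0.055 to 0.087, 6 of 12 closest to their own number), gave 27 higher and 23 lower at day 0, 25 and 25 at day 2, 26 and 24 over time in WT, 17 and 25 in KO, and 21 and 26 in the interaction. Leaving out each library gave 26 to 27 higher and 22 to 23 lower at day 0, 22 to 26 and 25 to 26 at day 2, 24 to 27 and 23 to 24 in WT, 16 to 18 and 23 to 25 in KO, and 19 to 21 and 25 to 27 in the interaction. For the 38 named members, 4027 of 4117 values over the alternatives kept direction and call, 65 lost the call, 24 gained one, and 1 reversed: Hdac3 at day 2 was 0.0125 in KO relative to WT under quantile normalization. Quantile normalization moved the median of all genes over time in WT from -0.11 to 0.01, and called 32 members higher and 19 lower there. The called fall of Kdm3b in WT (-0.17), a gene not among the 38, changed sign under it and lost its call. Without WT day 0 replicate 3 the calls of Setd2 at day 0 (also lost without WT day 0 replicate 1), of Hdac8 (0.11), Kdm2b (0.06) and Sirt5 (0.175) over time in WT, and of Hdac3 and Kdm1b in the interaction were lost, and several of these also under other alternatives. The Hdac11 interaction was -1.66 by voom and not called (adjusted p = 0.057), with 0 or 1 read in each KO library. The causes were not tested.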

Other observations

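Genes that supply the cofactors of these enzymes (acetyl-CoA, S-adenosylmethionine, NAD and 2-oxoglutarate) were read from a list chosen with these data known. Of 19 such genes tested, 11 rose and 4 fell in WT over the 2 days, where 34.2% and 46.5% of all genes did, and 15 rose and 1 fell in KO, where 33.9% and 38.8% did. In KO 15 were lower and 2 higher at day 0 (44.2% and 38.3% of all genes), and 13 lower and 5 higher at day 2 (40.6% and 40.8%). Nampt, the enzyme of NAD salvage, was at 42.3 ± 1.06 FPKM in WT day 0, 196 ± 2.59 in WT day 2, 24.4 ± 0.271 in KO day 0 and 69.7 ± 1.53 in KO day 2 (SD, n = 3), a rise of 2.18 ± 0.025 in WT and 1.48 ± 0.025 in KO on the log2 scale (SE, adjusted p = 3e-15 and 2.2e-13, limma). Mat2a, which makes S-adenosylmethionine, rose from 236 ± 0.964 to 636 ± 11.7 FPKM in WT and from 147 ± 1.36 to 270.2 ± 1.92 in KO (adjusted p = 8.1e-15 and 1.5e-12). Acly, the source of acetyl-CoA outside the mitochondria, fell in WT from 219.5 ± 3.11 to 114 ± 0.354 FPKM and rose in KO from 92.1 ± 1.02 to 112 ± 1.86 (interaction 1.23 ± 0.028, adjusted p = 3.8e-12). Idh1, a source of cytosolic 2-oxoglutarate, rose in both (1.33 and 0.99).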
